A study of Homo sapiens with 40 samples.

Results

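EGF-BT474R at 24 h was compared with its vehicle. BT474R is a trastuzumab-resistant derivative of the HER2-positive breast cancer cell line BT474, a single clone obtained by growing BT474 in trastuzumab for several weeks. Cells of both groups were serum starved and then kept for 24 h in fresh starvation medium with either water as the vehicle or epidermal growth factor (EGF) at 50 ng/mL, in duplicate wells. The 4 libraries, 2 labelled EGF and 2 labelled control, were chosen by cell line, treatment and time in the sample titles, out of 40 RNA-seq libraries in the series. The other 36 hold BT474R and its trastuzumab-sensitive parent BT474 at T0 (after starvation) and after vehicle, EGF or heregulin (HRG), and are used here only where they are named. No measured value was used to choose the libraries, and all genes of the table were examined.

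EGF binds the receptor EGFR, which pairs with itself or with HER2 and signals through the RAS/MAP kinase and PI3K/AKT routes to early transcription factors such as FOS and EGR1, to inhibitors that limit the signal, and to the cyclins that carry a cell from G1 into S phase. Interferon signalling is a separate route, in which receptors activate the JAK kinases and transcription factors such as STAT2 and IRF9, and in which IRF1 helps to switch on antiviral and antigen presentation genes. In luminal breast cancer cells, GATA3, FOXA1 and the oestrogen receptor ESR1 maintain the luminal programme, and growth factor signalling is known to lower the oestrogen receptor.

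The deposited values are reads counted per gene. The vehicle libraries held 25644212 and 21836985 counts and the EGF libraries 24419748 and 26269545. Levels are given as CPM, the read count of a gene relative to the total of its library, after scaling by the TMM method. The detection limit, 3 counts in a library, was between 0.111 and 0.138 CPM and covers counting error only, and where no library of a group exceeded it a fold is given as a bound. A differentially expressed gene (DEG) had an adjusted p below 0.05 in the quasi-likelihood test of edgeR. Log2 fold changes are EGF minus vehicle, with the standard error (SE) of the fit. The replicates are known by their numbers only, so the spread between wells may be technical. The p-values use a spread pooled over all BT474R libraries of the fit, not that of these 4 libraries alone. For a pair less even than most, the pooled spread may understate its own. The median chi-square of a gene between replicates was 1.42 for the vehicle and 0.992 for EGF, against 0.455 from counting alone, so the vehicle pair was the less even one. The breast epithelial and HER2 amplicon markers summed to 13080 and 14040 CPM with vehicle and to 14220 and 14380 CPM with EGF. Of 8 fibroblast markers, which summed to between 263 and 285 CPM, COL1A1 and COL3A1 were above the detection limit and DCN, LUM and FAP were at 0 in the 4 libraries. Immune markers summed to 2.30 and 2.76 CPM with vehicle and 4.95 and 5.49 CPM with EGF, where CD68 was the 1 of 3 tested that rose and CD3E was at 0. The endothelial markers summed to 9.05 and 10.8 CPM with vehicle and 12.5 and 13.2 CPM with EGF, and the basal ones to 2.82 and 4.01 CPM with vehicle and 4.44 and 4.86 CPM with EGF. The immune, endothelial and basal sums were each higher in both EGF libraries, and their part in other results was not tested. In bulk RNA, fewer cells of a kind and less RNA per cell cannot be told apart.

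EGF changed 4208 of 24287 genes tested at 24 h (17.3%). Of all genes tested, 9.95% rose and 7.37% fell, and these shares are the background for every group of genes below. Most changes were small. The median absolute log2 fold change was 0.39 among the genes that rose and 0.45 among those that fell, while 451 genes rose and 336 fell by 1 or more, and 173 rose and 81 fell by 2 or more. The median over all genes was -0.01. In 4206 of the 4208 DEGs, both EGF libraries lay on the same side of both vehicle libraries. The DEGs were chosen by their difference between these same libraries, so this separation adds no support to the calls. Replicate 1 of the vehicle decided a large part of the count, which was 2337 without it and 4146 without replicate 2. It was 2719 without replicate 1 of EGF and 2719 without replicate 2. By kind of gene, 14.1% of 15263 protein-coding genes rose and 9.44% fell, whereas 1.49% of 4217 long non-coding RNAs rose and 4.2% fell. Levels were not matched between the kinds, so these shares do not separate kind from level.

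**Figure D1:**
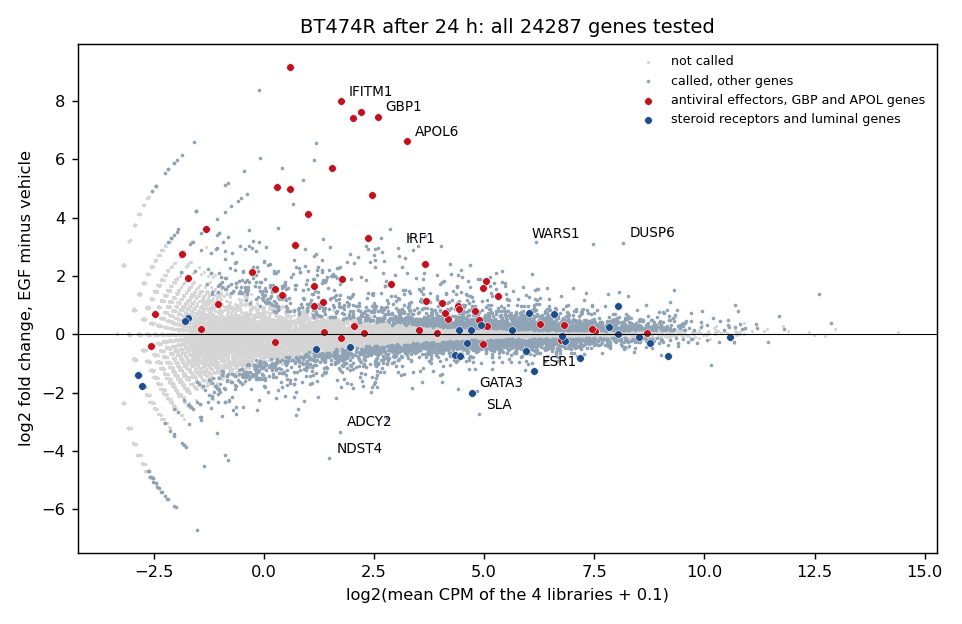
Mean level of each of the 24287 genes over the 4 libraries, as log2(CPM + 0.1), against its log2 fold change between EGF and vehicle; pale points did not pass the test. Several antiviral, GBP and APOL genes lie highest on the plot, whereas GATA3 and ESR1 are among the luminal genes below 0.

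Among genes with a mean of at least 1 CPM, the largest rises were of genes at or near the detection limit with vehicle. GBP1, an interferon-inducible GTPase, was at 0.0371 and 0.0921 CPM with vehicle and 12.9 and 10.6 CPM with EGF, at least 94.3-fold higher. IFIT3, an antiviral protein, was at 0 and 0.0921 CPM with vehicle and 9.17 and 6.51 CPM with EGF, at least 62.9-fold higher. Both genes went from the detection limit to several CPM in each EGF library. SERPING1, an inhibitor of complement, rose at least 34.7-fold, BATF2, a transcription factor induced by interferons, at least 33.5-fold, and TGM2, the tissue transglutaminase, at least 19.3-fold. LGALS17A was at least 27.2-fold and IFI44 at least 17.7-fold higher. APOL6, an apolipoprotein L, was at 0 and 0.414 CPM with vehicle and 21.1 and 16.4 CPM with EGF. Its log2 fold change of 6.62 (SE 0.35, adjusted p = 1.46e-11) depended on the few vehicle counts, and it was 5.49 without replicate 1 of the vehicle and 11.90 without replicate 2, after which no vehicle count was left. APOL1, IFITM1, OAS2 and BST2 completed the 12 largest rises by this rule.

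The 12 genes that fell most, by the same rule, were of varied function. SLA, an adaptor that dampens Src-family signalling, was at 42.1 and 60.7 CPM with vehicle and 7.12 and 8.04 CPM with EGF, a log2 fold change of -2.75 (SE 0.23, adjusted p = 1.46e-08). NDST4, which sulfates heparan sulfate, was at 5.78 and 4.51 CPM with vehicle and 0.298 and 0.235 CPM with EGF. For ADCY2, an adenylyl cyclase, the values were 5.78 and 5.94 CPM and 0.597 and 0.549 CPM. In each of these 3 genes the EGF libraries lay far below the vehicle libraries, and the rule itself required no overlap. COLEC12, a scavenger receptor, was at 11 and 13.3 CPM with vehicle and 1.28 and 1.96 CPM with EGF. Smaller falls were seen in ALDH1A1, which makes retinoic acid (-1.97, SE 0.18), the cadherin FAT4 (-2.18, SE 0.41), the transcription factor SOX6 (-2.15, SE 0.35), and FSTL5 (-2.57, SE 0.41). IGSF21 was at -2.78 (SE 0.33), and at -4.06 without replicate 1 of EGF and -2.07 without replicate 2. The basement membrane collagen COL4A3 was at -2.11 (SE 0.52, adjusted p = 0.00631), and its call was lost without replicate 1 of the vehicle or replicate 2 of EGF, with values of -1.77 (adjusted p = 0.0891) and -1.83 (adjusted p = 0.0878).

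Among the genes of interferon signalling, IRF1 changed most. This transcription factor, a first responder to interferon gamma, was at 1.48 and 2.35 CPM with vehicle and 15.2 and 13.8 CPM with EGF. Its log2 fold change was 2.94 (SE 0.24, adjusted p = 1.11e-08), and both EGF libraries were far above both vehicle libraries. IRF9, the DNA-binding partner of STAT2, was at 4.89 and 4.14 CPM with vehicle and 12.5 and 13.6 CPM with EGF, a rise of 1.52 (SE 0.12, adjusted p = 3.51e-09). The receptor subunit IFNGR1 rose by 0.36 (SE 0.08), from 19.8 and 19.6 CPM to 25.9 and 24.7 CPM. In all, 7 of 31 tested genes rose (22.6%) and 5 fell (16.1%), against 9.95% and 7.37% of all genes. The median log2 fold change was 0.16, and 19 of the 31 did not pass the test.

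The kinase JAK1 was at 120.4 and 122 CPM with vehicle and 114 and 111 CPM with EGF (adjusted p = 0.136), and JAK2 was at 0.384 CPM or below in all 4 libraries. The feedback inhibitors SOCS1 (0.38, SE 0.38) and SOCS3 (0.31, SE 0.31), both known interferon or cytokine targets, did not pass the test. SOCS2 fell from 6.01 and 6.4 CPM to 1.58 and 1.84 CPM, a log2 fold change of -1.85 (SE 0.17, adjusted p = 6.76e-08). STAT2 and IRF7 rose by 0.29 (SE 0.08) and 0.96 (SE 0.20), and both calls were lost in some fits with a library left out. STAT2 lost its call at 0.13 without replicate 2 of the vehicle and at 0.25 without replicate 2 of EGF. IRF7 lost its call at 0.66 without replicate 1 of the vehicle. USP18, an interferon-induced gene that limits receptor signalling, went the other way, from 41.1 and 37.2 CPM to 31.7 and 28 CPM, with a log2 fold change of -0.39 (SE 0.10, adjusted p = 0.00729). Its call was lost without replicate 1 of the vehicle, at -0.31, and without replicate 2 of EGF, at -0.31. IRF8 (-1.18, SE 0.32) and STAT6 (-0.34, SE 0.11) also fell, as did the phosphatase PTPN6 (-0.31), which was named after its value was seen. Only 2 of these 5 falls passed without replicate 1 of the vehicle, and 2 without either EGF library. IRF8 lost its call without replicate 2 of the vehicle (-0.97) or without either EGF library (-1.16 and -1.20), and STAT6 without replicate 1 of the vehicle (-0.23) or without either EGF library (-0.40 and -0.28).

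RNA of the interferons themselves was not detectable at this depth. Of the 13 interferon genes in the table, 8 had no count in the 4 libraries, IFNB1 and IFNG among them, and the largest count of any in 1 library was 1. Over all 20 BT474R libraries the largest was 2. A count of 0 allows up to 3 counts, or 0.138 CPM in the shallowest of the 4 libraries.

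Promoter sequences show which of the induced genes carry the 2 letter patterns through which interferon-activated factors are known to bind. The patterns were searched on both strands of the 250 bases before a gene's start, the interferon-stimulated response element as GAAANNGAAA and the gamma-activated site as TTCNNNGAA. Where a gene has several listed starts, it counts as holding a pattern if any of them does. For printing, a start with the response element was preferred. Genes with more starts can match more easily, and the shares were not adjusted for this. The sequences, from RefSeq and on GRCh38.p14, cover 15109 of the 24287 genes tested (62.2%). Candidates to be shown were the named members of the interferon signalling, antiviral, GBP and APOL, and antigen presentation lists that rose, so SERPING1 and BATF2 were not among them. No sequence was available for OAS2 and APOL1. Sequences are shown for the candidates with the largest rise that hold the response element, and for IRF1. Either pattern is in capitals, and overlapping matches are run together.
IFITM1: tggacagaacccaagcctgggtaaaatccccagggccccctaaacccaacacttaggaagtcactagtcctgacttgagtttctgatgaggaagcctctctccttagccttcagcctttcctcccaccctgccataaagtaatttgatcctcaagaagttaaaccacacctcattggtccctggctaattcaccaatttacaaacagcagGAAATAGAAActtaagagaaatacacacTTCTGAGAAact
GBP1: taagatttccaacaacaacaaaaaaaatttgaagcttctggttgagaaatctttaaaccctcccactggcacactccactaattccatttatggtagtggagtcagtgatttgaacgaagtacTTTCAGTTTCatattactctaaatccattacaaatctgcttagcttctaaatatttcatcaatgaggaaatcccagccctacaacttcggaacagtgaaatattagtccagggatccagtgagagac
IFIT3: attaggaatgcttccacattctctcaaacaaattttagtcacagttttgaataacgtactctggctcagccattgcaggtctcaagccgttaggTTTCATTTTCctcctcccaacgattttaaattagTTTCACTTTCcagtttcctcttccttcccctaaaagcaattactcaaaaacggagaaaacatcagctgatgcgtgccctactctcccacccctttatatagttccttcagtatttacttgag
BST2: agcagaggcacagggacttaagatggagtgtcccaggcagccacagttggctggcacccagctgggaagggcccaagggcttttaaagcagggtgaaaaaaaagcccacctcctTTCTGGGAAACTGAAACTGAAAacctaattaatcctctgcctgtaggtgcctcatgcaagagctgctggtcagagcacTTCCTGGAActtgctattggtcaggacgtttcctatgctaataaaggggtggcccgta
IRF1: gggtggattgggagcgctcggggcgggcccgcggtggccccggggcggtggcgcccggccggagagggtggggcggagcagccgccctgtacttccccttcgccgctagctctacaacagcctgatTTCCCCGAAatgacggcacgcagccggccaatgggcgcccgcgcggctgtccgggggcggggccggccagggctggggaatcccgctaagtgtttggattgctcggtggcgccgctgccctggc
These windows lie at chr11:313790-314039 (plus strand), chr1:89065209-89065458 (minus), chr10:89327747-89327996 (plus), chr19:17405631-17405880 (minus) and chr5:132490774-132491023 (minus), and each is printed 5′ to 3′ in the direction of its gene. IFITM1 has 1 response element and 1 activated site, GBP1 has 1 response element, IFIT3 has 2, and BST2 has 2 of each. IRF1 has 1 activated site and no match to the response element.

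Over all genes tested that have a promoter sequence, 3.35% hold the response element and 7.49% the activated site. Among all genes that rose with EGF the shares were 3.74% and 7.66%, and among all that fell 2.72% and 7.84%, close to those of all genes. Of the 38 antiviral effectors with a sequence, which were listed as known interferon targets, 25 hold the response element (65.8%) and 10 the activated site (26.3%). Among the 27 of them that rose, 18 hold the response element (66.7%), nearly the share of the whole list. Of the interferon signalling genes, 1 of 23 holds the response element and 4 hold the activated site. A match is a description of letters and was not tested as a binding site.

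Antiviral effectors rose as a group, 32 of 48 tested (66.7%) against the 9.95% of all genes, and 2 fell. Their median log2 fold change was 1.03. These are proteins that block viral entry, degrade viral RNA or tag proteins. OAS1, which makes the activator of RNase L, was at 0.779 and 1.1 CPM with vehicle and 9.68 and 8.67 CPM with EGF, a rise of 3.30 (SE 0.25, adjusted p = 2.76e-09). OAS2, of the same family, was at 0.0741 and 0 CPM and 9.47 and 8.67 CPM. IFITM1, a membrane protein that blocks viral entry, was at 0.0371 and 0 CPM and 6.48 and 6.55 CPM. For all 3 the EGF libraries were close to each other and above both vehicle libraries. BST2, which tethers virus particles, was at 0.185 and 0 CPM and 6.01 and 5.18 CPM. Its log2 fold change of 5.71 (SE 0.55) was 4.88 without replicate 2 of the vehicle and 10.14 without replicate 1, after which no vehicle count was left. The ubiquitin-like protein ISG15 was at 0.556 and 0.553 CPM and 1.92 and 1.33 CPM, with a log2 fold change of 1.54 (SE 0.35, adjusted p = 0.00327), and of 1.26 (adjusted p = 0.0583) without replicate 1 of EGF.

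Not every classical interferon target moved. MX1, a GTPase used as a standard marker of type I interferon, was at 2.41 and 2.4 CPM with vehicle and 2.64 and 2.39 CPM with EGF, a difference of 0.07 (SE 0.27, adjusted p = 0.912). MX2 was at 36.1 and 33.6 CPM and 28.7 and 26.9 CPM and fell by 0.33 (SE 0.10, adjusted p = 0.0208). TRIM25, a ubiquitin ligase of RNA sensing, fell by 0.19 (SE 0.05), and both falls were lost without replicate 1 of the vehicle (-0.26 and -0.14) and without replicate 2 of EGF (-0.28 and -0.17). MX2 was also lost without replicate 1 of EGF (-0.37). IFIT1 was at 0.0371 and 0.0461 CPM with vehicle, at the detection limit, and 0.469 and 0.157 CPM with EGF, at least 2.51-fold higher, and it lost its call without either vehicle library or without replicate 1 of EGF (adjusted p between 0.119 and 0.392). The antiviral count ranged from 28 to 33 when any 1 of the 4 libraries was left out.

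The guanylate-binding and apolipoprotein L genes, both families of interferon gamma targets, had 5 of 7 tested members up and none down. GBP2 was at 22.1 and 23.1 CPM with vehicle and 59.9 and 52.9 CPM with EGF, a rise of 1.32 (SE 0.09, adjusted p = 7.14e-10). GBP3 was at 2.85 and 4.01 CPM and 12.5 and 9.96 CPM, a rise of 1.72 (SE 0.18, adjusted p = 4.73e-07). APOL1 had no count with vehicle and was at 2.43 and 3.22 CPM with EGF. WARS1, the tryptophanyl-tRNA synthetase and a strong interferon gamma target, was at 33.1 and 41.4 CPM with vehicle and 338 and 299 CPM with EGF, which is 8.58-fold higher, with a log2 fold change of 3.10 (SE 0.12, adjusted p = 2.64e-13). Neither EGF library of these genes reached down into the range of the vehicle.

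**Figure D2:**
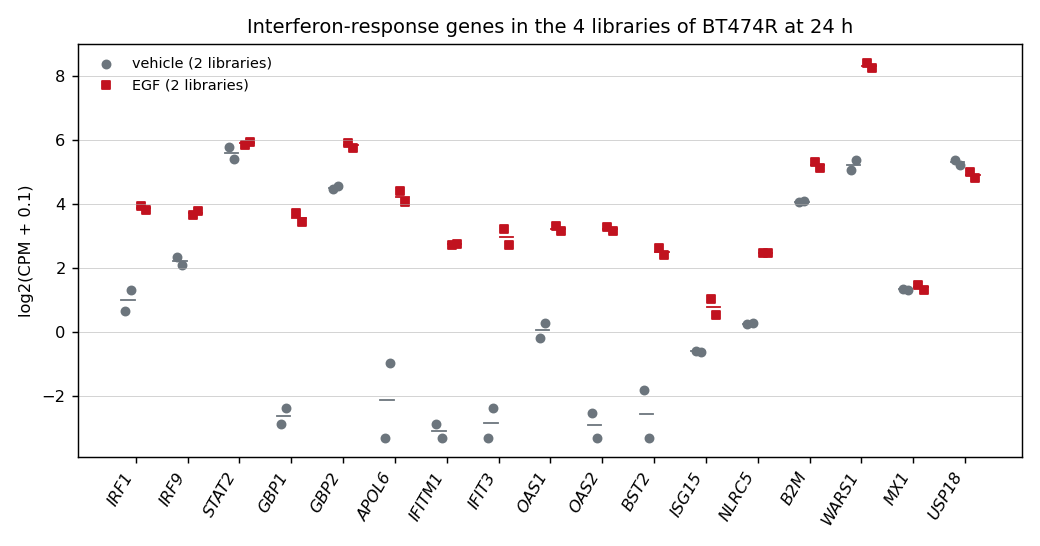
Levels of interferon-response genes as log2(CPM + 0.1) in the 2 vehicle (circles) and 2 EGF (squares) libraries, with a line at each mean. GBP1, IFITM1, IFIT3 and OAS2 rise from the detection limit, and MX1 overlaps between the groups.

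Antigen presentation genes rose in part, 8 of 21 tested against 3 that fell. NLRC5, an activator of MHC class I genes, was at 1.07 and 1.1 CPM with vehicle and 5.37 and 5.41 CPM with EGF. Its rise was 2.30 (SE 0.22, adjusted p = 1.05e-07). HLA-B was at 3.89 and 4.47 CPM and 22.9 and 20.6 CPM, B2M, the light chain of class I, at 16.4 and 16.7 CPM and 39.3 and 34.4 CPM, and the peptide transporter TAP1 at 3 and 2.49 CPM and 6.99 and 7.73 CPM. In all 4 of these genes the libraries of the 2 groups did not overlap. The table splits HLA-B, B2M and TAP1 over several rows that repeat the gene's name with a number, so these levels are those of 1 row and are uncertain. Summed over its rows, HLA-B rose by 2.36 on the log2 scale, B2M by 1.16 and TAP1 by 1.55. ERAP2, which trims peptides for class I, rose by 1.20 (SE 0.25, adjusted p = 0.00158). The chaperone CALR fell from 755 and 781 CPM to 584 and 568 CPM, a log2 fold change of -0.41 (SE 0.04). PDIA3 fell by 0.15 (SE 0.05), a call lost when any 1 of the 4 libraries was left out, where its adjusted p was between 0.0637 and 0.163. HLA-DRB1, the third that fell, was near the detection limit and was named after its value was seen. With any 1 of the 4 libraries left out, 1 of the 3 falls was called.

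Of the NF-kB genes and chemokines, 13 of 25 tested rose and 4 fell. ICAM1, an adhesion molecule that binds leukocytes, was at 1.3 and 1.06 CPM with vehicle and 7.93 and 6.94 CPM with EGF, a rise of 2.64 (SE 0.22, adjusted p = 1.75e-08). CCL22, a chemokine, was at 0.0741 and 0.184 CPM and 2.73 and 2.9 CPM. The inhibitor of NF-kB signalling TNFAIP3 was at 0.779 and 1.06 CPM and 2 and 3.18 CPM, a rise of 1.52 (SE 0.29). These genes were low with vehicle and had no overlap between the groups. CCL22 was at a log2 fold change of 4.46 (SE 0.52), and at 5.16 without replicate 2 of the vehicle. BIRC3, an inhibitor of apoptosis, rose by 1.24 (SE 0.25), and the receptor CXCR4 rose from 61.5 and 62.7 CPM to 104 and 103 CPM. CXCL8, a chemokine for neutrophils, was at least 7.64-fold higher. The death ligand TNFSF10 rose by 0.42 (SE 0.10), and its call was lost without replicate 1 of EGF, at 0.32 (adjusted p = 0.0992).

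The NF-kB subunits RELA, NFKB1 and REL did not rise. A member of this list with a smaller rise than those named above could go unnamed, so other subunits are not covered. RELA was at 91.3 and 95.5 CPM with vehicle and 91.2 and 93.1 CPM with EGF (adjusted p = 0.866). NFKB1 (-0.35, SE 0.08), REL (-0.32, SE 0.08) and the inhibitor NFKBIA (-0.24, SE 0.07) fell, and the chemokine CXCL5, which was near the detection limit and was named after its value was seen, fell as well. Without replicate 2 of EGF none of the 4 was called, with NFKB1 at -0.27, REL at -0.27 and NFKBIA at -0.11. Without replicate 1 of the vehicle NFKBIA was at -0.22, and 2 of the 4 were called, and without replicate 2 REL was at -0.21.

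EGFR, HER2 and ERBB3, the receptors that carry the signals of EGF and HRG together with ERBB4, did not pass the test. EGFR was at 985 and 1187 CPM with vehicle and 1058 and 1125 CPM with EGF, ERBB2, the gene of HER2, at 6831 and 7112 CPM and 6781 and 6718 CPM, and ERBB3 at 307 and 334 CPM and 297 and 289 CPM. Their differences were 0.01 (SE 0.09, adjusted p = 0.991), -0.05 (SE 0.05, adjusted p = 0.561) and -0.13 (SE 0.06, adjusted p = 0.146). ERBB4, the fourth member, was at 15.5 and 14 CPM with vehicle and 6.05 and 5.92 CPM with EGF and fell by 1.31 (SE 0.12, adjusted p = 3.28e-08). Among the ligands, AREG (amphiregulin) was at 0.556 and 0.553 CPM and 3.75 and 3.81 CPM, a rise of 2.76 (SE 0.31, adjusted p = 1.02e-06), and both EGF libraries stood above both vehicle libraries. HBEGF rose by 2.44 (SE 0.55), and by 1.61 (adjusted p = 0.126) without replicate 2 of EGF. TGFA was at 0.42 (SE 0.15, adjusted p = 0.0526) and was not called, though 5 of 12 alternative analyses called it. BTC rose by 0.80 (SE 0.27) and EGF itself fell by 0.40 (SE 0.14). BTC lost its call when any 1 of the 4 libraries was left out, at values between 0.65 and 0.95, and EGF lost it without replicate 1 of the vehicle (-0.26) or either EGF library (-0.39 and -0.42). In all, 3 of 12 tested genes rose and 2 fell, and 1 rose without replicate 2 of EGF, while 1 fell without replicate 1 of the vehicle or without either EGF library.

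Of 26 inhibitors of receptor and MAP kinase signalling tested, 11 rose (42.3%), 5 fell (19.2%) and 10 were not called. DUSP6, a phosphatase that switches off ERK, was at 57 and 58.4 CPM with vehicle and 511 and 506 CPM with EGF, which is 8.82-fold higher, with a log2 fold change of 3.14 (SE 0.11, adjusted p = 6.76e-14). SPRY4, a Sprouty protein, was at 27.4 and 25.1 CPM and 108 and 110.2 CPM, a rise of 2.05 (SE 0.10, adjusted p = 8.73e-12). ERRFI1 (MIG6), which binds and inhibits EGFR, was at 17.3 and 20.4 CPM and 60.8 and 70.4 CPM, a rise of 1.80 (SE 0.09, adjusted p = 7.43e-12). For these 3 genes the replicates were close and the groups far apart. PHLDA1 rose by 2.30 (SE 0.19), IER3 by 2.03 (SE 0.12) and the ERK phosphatase DUSP4, at 1152 and 1324 CPM with vehicle and 1732 and 1703 CPM with EGF, by 0.47 (SE 0.06). SPRY2 was not called (0.24, SE 0.28).

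The 5 that fell were DUSP16 (-0.36, SE 0.07), DUSP1 (-0.38, SE 0.13), DUSP14 (-0.29, SE 0.06), LRIG1 (-0.28, SE 0.07) and LRIG2 (-0.28, SE 0.07), which are phosphatases and receptor inhibitors too. DUSP16 kept its call when any library was left out. The others lost their calls in 1 or more of these fits, each of which leaves 1 library in a group. A lost call alone therefore does not show that the change rested on the library left out. The calls were lost at the following values. Without replicate 1 of the vehicle LRIG1 was at -0.24 and LRIG2 at -0.23, and without replicate 2 of the vehicle DUSP1 was at -0.23. Without replicate 1 of EGF DUSP1 was at -0.43. Without replicate 2 of EGF DUSP1 was at -0.33, DUSP14 at -0.22 and LRIG1 at -0.14.

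Early response transcription factors, which growth factors induce within minutes, were also above the vehicle at 24 h for 13 of 26 tested genes, with 1 that fell. FOS was at 1.48 and 3.09 CPM with vehicle and 13.1 and 15.5 CPM with EGF, a rise of 2.69 (SE 0.28, adjusted p = 3.78e-07). KLF2 was at 12 and 13.1 CPM and 39.1 and 38.6 CPM, a rise of 1.64 (SE 0.11, adjusted p = 2.78e-10). KLF4 fell from 28.3 and 30.8 CPM to 21.9 and 23.6 CPM, a log2 fold change of -0.37 (SE 0.08). The 2 EGF libraries lay apart from the 2 vehicle libraries for each of them. EGR1 rose by 0.69 (SE 0.21), with its call lost without replicate 2 of the vehicle (0.52) or either EGF library (0.77 and 0.59), and MYC by 1.09 (SE 0.25), with its call lost without replicate 1 of the vehicle (0.76) or replicate 2 of EGF (0.90). ATF3, a stress-response factor, was at 2.93 and 7.37 CPM with vehicle and 12.2 and 13.6 CPM with EGF. Its vehicle libraries differed more than its EGF libraries, and the log2 fold change of 1.37 (SE 0.31) was 0.82 (adjusted p = 0.1) without replicate 1 of the vehicle and 2.14 without replicate 2. FOSL1 was at least 3.9-fold higher, and its call was lost without replicate 2 of the vehicle, at 2.09 (adjusted p = 0.0762), or replicate 2 of EGF, at 2.55 (adjusted p = 0.1). EGR2 was at 0.0371 and 0.0461 CPM with vehicle and 0.213 and 0.235 CPM with EGF and was not called.

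Of 23 G1 cyclins, kinases and inhibitors tested, 12 rose (52.2%) and 1 fell. CCND1 (cyclin D1) was at 218 and 266 CPM with vehicle and 349 and 389 CPM with EGF, a rise of 0.61 (SE 0.12, adjusted p = 0.000889). E2F1, which drives S phase genes, was at 30.6 and 35.7 CPM and 44.9 and 44.9 CPM, a rise of 0.44 (SE 0.07, adjusted p = 0.000171). RBL2 (p130), a pocket protein of resting cells, fell from 77.8 and 77.5 CPM to 61.6 and 58.8 CPM, a log2 fold change of -0.37 (SE 0.05, adjusted p = 2.93e-05). The groups did not overlap in any of the 3. The inhibitor CDKN2B (p15) rose by 1.68 (SE 0.26), from 0.667 and 0.829 CPM to 2.13 and 2.63 CPM, while CDKN1B (p27) was at 35.9 and 42.8 CPM and 41.1 and 40.7 CPM and was not called. CDKN1A (p21) was at 12.6 and 26.1 CPM and 39.4 and 45.4 CPM. Its log2 fold change of 1.16 (SE 0.24) was 0.71 (adjusted p = 0.0522) without replicate 1 of the vehicle and 1.75 without replicate 2. CCNE1 rose by 0.48 (SE 0.12), a call lost without replicate 1 of the vehicle (0.35) or replicate 2 of EGF (0.42). Without replicate 1 of the vehicle, 6 of the 23 genes rose.

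Of 34 DNA replication genes tested, 25 rose (73.5%) and none fell, with log2 fold changes over the list between -0.03 and 0.69 and a median of 0.32. PCNA, the sliding clamp, was at 98 and 121 CPM with vehicle and 144 and 146 CPM with EGF, a rise of 0.41 (SE 0.07, adjusted p = 0.000296). CDC6, which loads the replicative helicase, was at 57.4 and 77.5 CPM and 98.7 and 106 CPM, a rise of 0.61 (SE 0.10, adjusted p = 0.000185). MCM10 rose by 0.56 (SE 0.08) and the polymerase subunit POLE2 by 0.69 (SE 0.12). In PCNA and CDC6, replicate 1 of the vehicle was the lowest of the 4 libraries. Without it, 13 of the 34 genes were called and MCM2 was at 0.16 (adjusted p = 0.153) and UHRF1 at 0.38 (adjusted p = 0.0788), against 0.26 and 0.52 with it. Without replicate 2, 31 were called.

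Few mitosis genes passed the test. Of 33 tested, 4 rose (12.1%) and 2 fell (6.06%), near the shares of all genes, and their median log2 fold change was 0.04. The proliferation marker MKI67 was at 283 and 291 CPM with vehicle and 285 and 303 CPM with EGF, and the mitotic cyclin CCNB1 at 78.4 and 80.3 CPM and 74.6 and 75.9 CPM. MKI67 overlapped between the groups, and CCNB1 lay slightly lower with EGF without passing the test (adjusted p = 0.435). MAD2L1, of the spindle checkpoint, rose by 0.38 (SE 0.07, adjusted p = 0.000753), from 35.5 and 40.1 CPM to 48.3 and 49.8 CPM. The other calls, CDK1 (0.26, SE 0.07), HMMR (0.31, SE 0.10) and PRC1 (0.19, SE 0.06) up and KIF20A (-0.26, SE 0.07) and CENPF (-0.20, SE 0.07) down, were each lost without replicate 1 of the vehicle (0.17, 0.22, 0.16, -0.24 and -0.21) and without replicate 2 of EGF (0.26, 0.35, 0.15, -0.22 and -0.22). Without replicate 1 of EGF, CDK1 (0.26), HMMR (0.28) and CENPF (-0.19) lost theirs, and without replicate 2 of the vehicle CENPF (-0.19) did.

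Both groups of genes were also compared between the lines and between the ligands. Of the 24641 genes tested between the lines, the EGF effect at 24 h was larger, or less negative, in BT474R for 1.92% and smaller for 2.09%, 4.01% in all. Of the mitosis genes it was smaller in BT474R for 20 and larger for none, with a median difference of -0.35 log2, against -0.02 over all genes, while none of the replication genes was called and their median difference was 0.08. In BT474, MKI67 was at 165 and 168 CPM with vehicle and 249.5 and 208 CPM with EGF, and the difference of the EGF effects was -0.43 (SE 0.08, adjusted p = 0.000593). CCNB1 was at 63 and 62.1 CPM and 80 and 83.8 CPM there, and its difference was -0.47 (SE 0.07, adjusted p = 3.05e-05). With vehicle, MKI67 was higher in both BT474R libraries than in both BT474 libraries, where levels are scaled within each line. Without replicate 1 of EGF-BT474 the count over all genes was 618, and without replicate 2 of its vehicle 657, against 989 with all libraries.

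EGF and HRG, the ligand of ERBB3 and ERBB4, were compared directly in BT474R at 24 h. HRG was given at a lower dose in ng/mL than EGF, so ligand and dose cannot be told apart here. Of 24287 genes, 3.32% were higher and 1.86% lower with EGF than with HRG, 5.18% in all. The HRG pair was the least even of the BT474R groups, with a median chi-square of 2.19, and no gene was called when only these 4 libraries were fitted (2122 had an unadjusted p below 0.05, and DESeq2 on the 20 libraries called 1081). Without replicate 2 of HRG, 2030 genes were called, and without replicate 1 or 2 of EGF 792 or 652. Mitosis genes were lower with EGF than with HRG for 16 of 33 and higher for none, with a median of -0.22 log2, and no replication gene was called (median 0.02). MKI67 was at 340.2 and 347 CPM with HRG, above both EGF libraries.

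**Figure D3:**
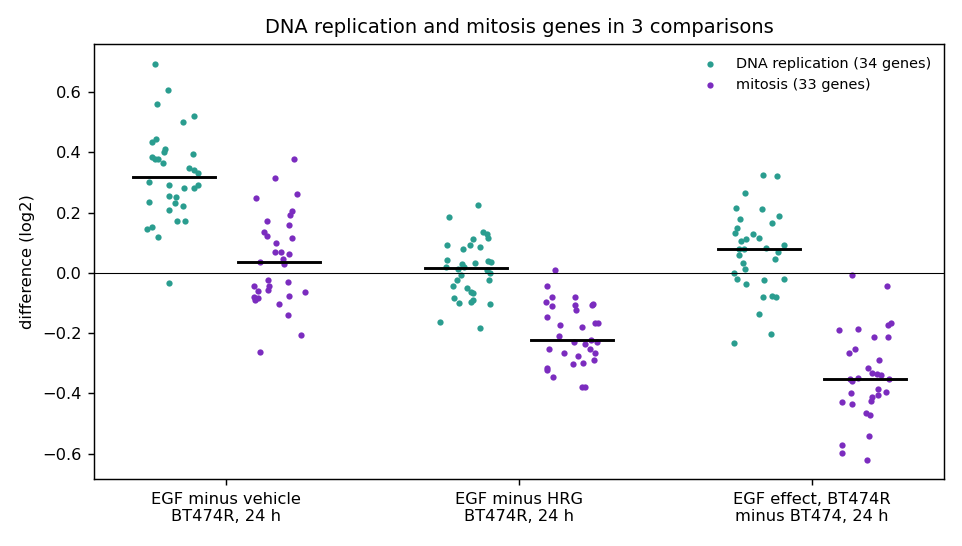
Log2 differences of 34 DNA replication and 33 mitosis genes (1 point per gene, bar at the median) in 3 comparisons at 24 h: EGF minus vehicle, EGF minus HRG, and the EGF effect in BT474R minus that in BT474. The median of the replication genes is 0.32 against the vehicle, 0.02 against HRG and 0.08 between the lines, and that of the mitosis genes is 0.04, -0.22 and -0.35.

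Steroid receptors and luminal genes fell more often than they rose, 10 of 28 tested (35.7%, against 7.37% of all genes) and 5 up. GATA3, the transcription factor of luminal identity, was at 46.7 and 38.1 CPM with vehicle and 11 and 10.2 CPM with EGF, with a log2 fold change of -2.00 (SE 0.15, adjusted p = 2.53e-09). ESR1, the oestrogen receptor, was at 107 and 92.2 CPM and 42.4 and 40.3 CPM, with a log2 fold change of -1.27 (SE 0.10, adjusted p = 6.14e-09). In both genes the EGF libraries were far below both vehicle libraries. The progesterone receptor PGR was at -0.75 (SE 0.12), the prolactin receptor PRLR at -0.76 (SE 0.07) and FOXA1, which opens chromatin for ESR1, at -0.31 (SE 0.05), all of them DEGs. The oestrogen-responsive gene TFF1 went up, from 64 and 81.5 CPM to 116 and 121 CPM, a rise of 0.71 (SE 0.10, adjusted p = 1.82e-05). AGR2, a luminal secretory protein, was at 167 and 187 CPM and 349 and 350.1 CPM, a rise of 0.98 (SE 0.07, adjusted p = 2.80e-09), and the vitamin D receptor VDR rose by 0.73 (SE 0.07). RARA rose by 0.30 (SE 0.07), a call lost without replicate 2 of EGF (0.20). Without that library 3 rose, and between 8 and 11 fell whichever of the 4 libraries was left out.

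Keratins, mucins and other epithelial surface genes had 19 of 41 tested members up and none down. S100A9, a calcium-binding protein of inflamed epithelium, was at 2.23 and 2.76 CPM with vehicle and 20.6 and 19.3 CPM with EGF, a rise of 3.01 (SE 0.14, adjusted p = 1.95e-12). KRT16, a keratin of activated keratinocytes, was at 1 and 1.34 CPM and 10.1 and 12.6 CPM, a rise of 3.29 (SE 0.22, adjusted p = 5.07e-10). KRT17 was at 0.185 and 0.138 CPM and 2.09 and 2.16 CPM. All 3 were low with vehicle and rose in both EGF libraries. The gel-forming mucin MUC2 rose by 2.81 (SE 0.27) and the water channel AQP3 by 1.82 (SE 0.20), while MUC1 was not called (-0.18, SE 0.13). The luminal keratin KRT18 rose from 358 and 459 CPM to 696 and 745 CPM, by 0.82 (SE 0.12). Its partner KRT8 rose by 0.45 (SE 0.12), and was at 0.26 (adjusted p = 0.194) without replicate 1 of the vehicle and at 0.41 (adjusted p = 0.0837) without replicate 2 of EGF. KRT16 and KRT17 belong to a family of similar genes, so their counts are uncertain.

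Adhesion and matrix genes rose for 16 of 35 tested, and 2 fell. ITGB6, an integrin that activates latent TGF-beta, was at 32.3 and 41.7 CPM with vehicle and 109 and 109.8 CPM with EGF, a rise of 1.57 (SE 0.10, adjusted p = 1.13e-10). ITGA5, the fibronectin receptor chain, was at 2.45 and 4.84 CPM and 14.5 and 15.8 CPM, and CDH5, the cadherin of endothelial cells, at 0.667 and 0.737 CPM and 3.88 and 4.28 CPM. The groups did not overlap in any of the 3. Of the endothelial markers, 2 of 4 tested rose, none without replicate 1 of the vehicle, 1 without replicate 2 and 1 without replicate 1 of EGF, and the part of other cells in the CDH5 value was not tested. VIM, the mesenchymal filament, was not called (0.21, SE 0.10). The adhesion gene CDH1 of E-cadherin (-0.17, SE 0.04) and the matrix gene THBS1 (-0.30, SE 0.08) fell. Without replicate 1 of the vehicle they were at -0.17 (adjusted p = 0.0538) and -0.11 (adjusted p = 0.472), without replicate 2 of EGF at -0.13 and -0.29, and neither passed in those fits. THBS1 was at -0.32 (adjusted p = 0.0554) without replicate 1 of EGF.

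Smaller families moved in both directions. Of 22 genes of heparan sulfate synthesis and its carriers, 5 rose and 6 fell. SULF2, which removes sulfate from heparan chains, was at 26 and 26.9 CPM with vehicle and 73 and 75 CPM with EGF, a rise of 1.49 (SE 0.09, adjusted p = 7.66e-11). GPC4 rose by 0.80 (SE 0.12), SDC1 by 0.29 (SE 0.06) and the chain polymerase EXT1 by 0.39 (SE 0.08), whereas HS6ST3 (-0.52, SE 0.08) and GLCE (-0.44, SE 0.09) fell, together with NDST4. HS6ST2 rose by 0.35 (SE 0.09), lost without replicate 1 of the vehicle (0.21) or of EGF (0.29), and GPC6 fell by 0.43 (SE 0.12), lost without replicate 2 of the vehicle (-0.25) or either EGF library (-0.42 and -0.44). Of 10 adenylyl cyclases tested, ADCY5 rose from 19.5 and 21.6 CPM to 45.7 and 46.3 CPM, by 1.17 (SE 0.11, adjusted p = 5.12e-08), and ADCY6 fell by 0.35 (SE 0.07), beside ADCY2. ADCY7 rose by 0.65 (SE 0.20), which did not pass when any 1 of the 4 libraries was left out (adjusted p between 0.0750 and 0.133).

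Readouts of TGF-beta, BMP, Wnt and Notch signalling had 6 of 22 tested up and 2 down. SOX9 was at 22.8 and 27.4 CPM with vehicle and 65 and 64.5 CPM with EGF, a rise of 1.37 (SE 0.11, adjusted p = 5.07e-09). The BMP target ID1 was at 1.63 and 2.07 CPM and 6.4 and 7.96 CPM, a rise of 1.97 (SE 0.18, adjusted p = 7.21e-08). NKD1, a Wnt antagonist, rose by 1.20 (SE 0.14). These 3 rose without overlap, and the standard readouts SMAD7 (-0.09, SE 0.15), AXIN2 (0.39, SE 0.24) and HES1 (0.22, SE 0.09) were not called. The libraries of the groups did not overlap in AXIN2 and HES1 either. HEY1 rose by 1.07 (SE 0.22), and by 0.71 (adjusted p = 0.0564) without replicate 1 of the vehicle. The 2 that fell were LEF1 (-1.04, SE 0.20) and the pseudoreceptor BAMBI (-0.39, SE 0.06).

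The PI3K, AKT and FOXO genes moved in both directions, 4 of 26 tested up (15.4%) and 6 down (23.1%), against 9.95% and 7.37% of all genes, with a median log2 fold change of 0.03. IRS2, an adaptor of the insulin receptor, was at 6.97 and 6.59 CPM with vehicle and 17.1 and 17.9 CPM with EGF, a rise of 1.37 (SE 0.12, adjusted p = 1.54e-08). IRS1 was at 14.1 and 13.2 CPM and 25.4 and 29.3 CPM, a rise of 1.00 (SE 0.10, adjusted p = 1.30e-07). DEPTOR, an inhibitor of mTOR, rose by 0.83 (SE 0.10). The PI3K regulatory subunits fell, PIK3R1 from 97.1 and 94 CPM to 71.9 and 66.8 CPM (-0.46, SE 0.08) and PIK3R2 as well (-0.29, SE 0.05). FOXO1 and IGF1R were not called (-0.17, SE 0.13 and 0.19, SE 0.08). INSR rose by 0.29 (SE 0.08), FOXO4 (-0.38, SE 0.10) and TSC2 (-0.18, SE 0.05) fell, and all 3 calls were lost without replicate 1 of the vehicle (0.18, -0.19 and -0.14) and without replicate 2 of EGF (0.26, -0.32 and -0.16). Without the latter library 3 of the 6 falls were called.

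Sterol and fatty acid synthesis genes rose for 20 of 29 tested (69.0%) and fell for none, with a median of 0.49. FDPS, which makes farnesyl pyrophosphate, was at 524 and 717 CPM with vehicle and 1030 and 1037 CPM with EGF, a rise of 0.74 (SE 0.11, adjusted p = 3.70e-05). FASN, the fatty acid synthase, was at 5734 and 7340 CPM and 8033 and 8848 CPM. Replicate 1 of the vehicle was the lowest library for both. STARD4, a sterol carrier, rose by 0.90 (SE 0.16), while the factors that drive these genes, SREBF1 and SREBF2, were not called (-0.04, SE 0.05 and -0.04, SE 0.05). Without vehicle replicate 1, 5 of the 29 rose, and FASN was at 0.21 (adjusted p = 0.215) and ACAT2 at 0.41 (adjusted p = 0.0654). Without vehicle replicate 2, 25 rose, and without replicate 2 of EGF, 10 rose, with FASN at 0.30 (adjusted p = 0.127). With all libraries FASN and ACAT2 were at 0.37 and 0.69.

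Hypoxia-inducible and glycolysis genes showed the same dependence. Of 34 tested, 12 rose and 2 fell, but 4 rose without replicate 1 of the vehicle and 21 without replicate 2. CA9, a carbonic anhydrase and hypoxia marker, was at 17.1 and 38.6 CPM with vehicle and 59.2 and 67.5 CPM with EGF, and its log2 fold change of 1.20 (SE 0.28) was 0.73 (adjusted p = 0.101) without replicate 1 of the vehicle and 1.89 without replicate 2. PDK4, which restrains pyruvate oxidation, was at 5.3 and 4.01 CPM and 15.1 and 12.1 CPM, a rise of 1.53 (SE 0.14, adjusted p = 6.56e-08). ENO2, an enolase, was at 40.6 and 50 CPM and 96.1 and 108 CPM, a rise of 1.17 (SE 0.13, adjusted p = 7.77e-07). These last 2 genes kept their calls when any library was left out. ADM rose by 1.16 (SE 0.24) and PDK2 fell by 0.64 (SE 0.10). SLC2A1 (0.29, SE 0.12), HK2 (0.29, SE 0.17) and PKM (0.12, SE 0.08), which carry glucose uptake and glycolysis, were not called. SLC2A1 was called in 4 of 12 alternative analyses, PKM in 2 and HK2 in 1, and without replicate 2 of the vehicle SLC2A1 was at 0.50 (adjusted p = 0.0149) and PKM at 0.26 (adjusted p = 0.0343). HIF1A rose by 0.17 (SE 0.05), with its call lost without replicate 1 of the vehicle (0.17) or of EGF (0.14), and PFKM fell by 0.32 (SE 0.08), with its call lost without replicate 1 of the vehicle (-0.23) or replicate 2 of EGF (-0.22). In both of these fits of PFKM 1 of the 2 falls was called. Without either EGF library 8 of the genes rose.

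Genes of amino acid supply and the integrated stress response rose for 14 of 24 tested and fell for none. GDF15, a stress cytokine, was at 8.01 and 22 CPM with vehicle and 116 and 143 CPM with EGF, a log2 fold change of 3.15 (SE 0.33, adjusted p = 4.55e-07). This difference was 4.02 without replicate 2 of the vehicle, which was the higher of that pair. ATF4, the transcription factor of this response, was at 302 and 352 CPM and 447 and 464 CPM, a rise of 0.48 (SE 0.07, adjusted p = 1.98e-05), and both groups were apart. CHAC1, which degrades glutathione, rose by 1.41 (SE 0.15), and TRIB3 and CEBPB by 0.77 (SE 0.10) and 0.77 (SE 0.10). DDIT3 (CHOP) and the asparagine synthetase ASNS rose by 0.34 (SE 0.10) and 0.55 (SE 0.17). Both lost their calls without replicate 2 of the vehicle (0.24 and 0.45) or replicate 1 of EGF (0.28 and 0.53), and ASNS without replicate 2 of EGF (0.57).

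Of 25 survival and cell death genes tested, 8 rose and 3 fell. The BH3-only gene PMAIP1 (NOXA) was at 5 and 5.89 CPM with vehicle and 14 and 14.6 CPM with EGF, a rise of 1.40 (SE 0.13, adjusted p = 6.15e-08). The death receptor TNFRSF10A was at 16.3 and 19.5 CPM and 36 and 34.5 CPM, a rise of 0.98 (SE 0.12, adjusted p = 1.80e-06), and TNFRSF10B rose by 0.54 (SE 0.07). CASP10, a caspase of death receptors, was at 0.334 and 0.507 CPM and 2.17 and 1.61 CPM. All of these were higher in both EGF libraries, whereas the BH3-only genes BMF (-0.55, SE 0.07) and BCL2L11 (BIM, -0.27, SE 0.05) fell. The survival genes BCL2, BCL2L1 and MCL1 were not called (0.52, SE 0.30, -0.10, SE 0.05 and 0.12, SE 0.06), and BCL2L2 fell by 0.32 (SE 0.07), with its call lost without replicate 1 of the vehicle (-0.21) or of EGF (-0.24). Heat shock genes rose for 7 of 9 tested, by up to 0.41 in HSPH1, with 4 called without replicate 2 of the vehicle and 3 without replicate 1 of EGF. HSPA8 rose by 0.35 (SE 0.05), while HSPH1 was at 0.32 (adjusted p = 0.0504) and 0.31 (adjusted p = 0.0799) in those 2 fits. Ribosome biogenesis genes rose for 8 of 24, of which DKC1 (0.27, SE 0.06) and PUS7 (0.28, SE 0.07) kept their calls, and 4 rose without replicate 1 of the vehicle and 3 without replicate 1 of EGF.

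**Figure D4:**
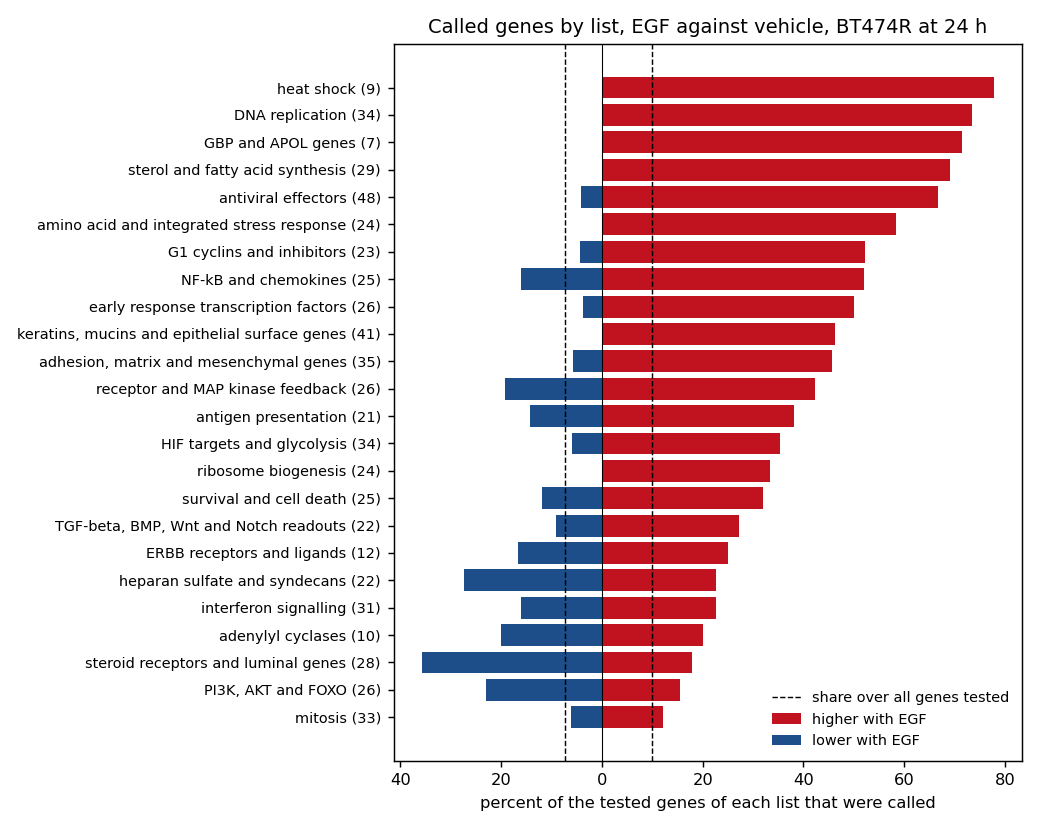
Percent of the tested genes of each list (number in brackets) that were higher (right) or lower (left) with EGF, with dashed lines at the 9.95% and 7.37% of all genes. Heat shock, DNA replication, GBP and APOL, sterol synthesis and antiviral genes have the longest bars to the right, the steroid receptor and luminal list has the longest bar to the left, and the mitosis bars end near the dashed lines.

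The interferon-response genes differed between the lines. Of the 48 antiviral effectors, the EGF effect at 24 h was larger in BT474R for 24 and smaller for none, and of the 7 GBP and APOL genes it was larger for 5. IRF1 was at 5.07 and 4.9 CPM with vehicle and 4.13 and 4.9 CPM with EGF in BT474, where the groups overlapped, and the difference was 3.09 (SE 0.30, adjusted p = 3.01e-09). With vehicle, both BT474 libraries were above both BT474R libraries for IRF1, and with EGF they were below them. WARS1 was at 49.1 and 51.9 CPM and 57.4 and 66.4 CPM in BT474, with a difference of 2.81 (SE 0.15, adjusted p = 8.39e-16). For APOL1, at the detection limit in vehicle-treated BT474R, the difference was not called (adjusted p = 0.158).

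Several luminal and feedback genes differed as well. GATA3 was at 521 and 541 CPM with vehicle and 383 and 372 CPM with EGF in BT474, far above BT474R, and its fall was larger in BT474R, with a difference of -1.52 (SE 0.15, adjusted p = 4.28e-09). For ESR1 the difference was -0.69 (SE 0.12, adjusted p = 0.00016). COLEC12 was at 119 and 120.3 CPM and 61.8 and 66.9 CPM in BT474, and the difference of the effects was -1.99 (SE 0.20, adjusted p = 5.85e-09). FOS went in opposite directions, since in BT474 it was at 3.22 and 3.04 CPM with vehicle and 1.49 and 1.84 CPM with EGF, and the difference was 3.60 (SE 0.40, adjusted p = 7.01e-08). The effect on DUSP6 was larger in BT474R by 1.18 (SE 0.13, adjusted p = 6.42e-08), and that on DUSP4 smaller, with a difference of -0.67 (SE 0.07, adjusted p = 3.67e-08). The long non-coding RNA H19, which was at 2958 and 3895 CPM with vehicle and 8579 and 9273 CPM with EGF in BT474R, was at 6.73 and 5.37 CPM and 48.3 and 84.3 CPM in BT474, and its difference was -2.08 (SE 0.29, adjusted p = 6.22e-06).

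Against 12 h, the EGF effect in BT474R changed for 0.185% of genes. WARS1 was at 60.5 and 66 CPM with vehicle and 133 and 119.8 CPM with EGF at 12 h, and its EGF effect was larger at 24 h by 2.10 (SE 0.17, adjusted p = 6.10e-07). HLA-B was larger by 1.52 (SE 0.24, adjusted p = 0.00465) and B2M by 0.80 (SE 0.12, adjusted p = 0.00286), both from 1 row of several, and S100A9 by 1.28 (SE 0.20, adjusted p = 0.00465). IRF1 had reached 14.8 and 11 CPM with EGF by 1 h, against 1.97 and 3.55 CPM with vehicle, and stood at 19.1 and 13.6 CPM at 12 h. The difference in its EGF effect between 24 h and 12 h was -0.18 (SE 0.37, adjusted p = 0.948) and was not called. GBP1, which had no count at T0 or in the vehicle at 12 h, was at 0 and 0.0394 CPM 1 h after EGF and at 4.14 and 3.2 CPM after 12 h. Both EGF libraries were above both vehicle libraries for IRF1 at 1 h, and for GBP1 at 12 h but not at 1 h. ERRFI1 was larger at 24 h by 0.66 (SE 0.12, adjusted p = 0.0258), and CCNB1 smaller, with a difference of -0.48 (SE 0.08, adjusted p = 0.0106). The fall of ADCY2 was larger at 24 h, with a difference of -1.54 (SE 0.27, adjusted p = 0.0114).

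This count, 45 genes in all, depended on most of its 8 libraries. It was 19 without replicate 1 of the vehicle at 24 h and 122 without replicate 2, 23 and 14 without replicates 1 and 2 of EGF at 24 h, 23 and 12 without those of the vehicle at 12 h, and 31 and 13 without those of EGF at 12 h.

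**Figure D5:**
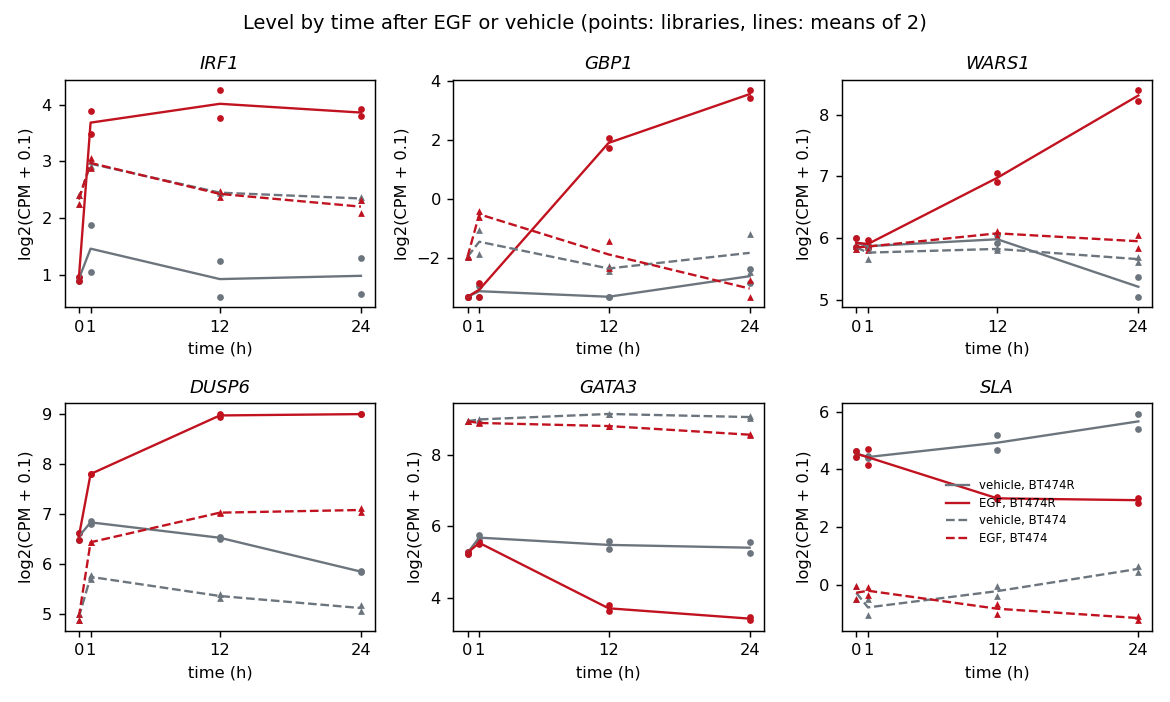
Levels of 6 genes as log2(CPM + 0.1) at T0 and 1 h, 12 h and 24 h after EGF or vehicle in BT474R (solid lines, circles) and BT474 (dashed lines, triangles), with 1 point per library. IRF1 in BT474R is raised from 1 h on, GBP1 and WARS1 rise by 12 h and 24 h, and in BT474R GATA3 and SLA lie below their vehicle from 12 h on.

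The interferon-response genes also differed between the ligands, which were given at different doses, in BT474R at 24 h. Of the 48 antiviral effectors, 30 were higher with EGF than with HRG and none lower, and of the 7 GBP and APOL genes 6 were higher. IRF1 was at 1.87 and 2.25 CPM with HRG, both within the range of the vehicle libraries, and 2.81 (SE 0.24, adjusted p = 6.86e-08) higher with EGF on the log2 scale. GBP1 was at 0 and 0.046 CPM with HRG, at the detection limit as with vehicle. GATA3 was at 31.8 and 21.1 CPM after HRG, below both vehicle libraries, and the level was lower with EGF, with a log2 difference of -1.32 (SE 0.16, adjusted p = 6.43e-06). SLA was at 25.4 and 37 CPM and NDST4 at 2.92 and 0.644 CPM after HRG, and both were lower with EGF, with log2 differences of -2.04 (SE 0.24, adjusted p = 5.65e-06) and -2.73 (SE 0.55, adjusted p = 0.00308). The HRG pair was far apart for NDST4. DUSP6 was at 97.8 and 147 CPM with HRG, and 2.06 (SE 0.10, adjusted p = 4.72e-11) higher with EGF.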

How the data were processed

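Gene expression was measured by RNA-seq of mRNA libraries. The authors trimmed reads with Trim Galore 0.6.6, aligned them to the human genome and counted them per gene with featureCounts, per the labels and the study's methods, and deposited the raw counts of 40 libraries as 1 table of 44584 rows. The annotation release, strand setting and treatment of reads with several alignments are not given in the sources used here. Copies of a gene at several places have numbered rows of their own (5078 rows). The other assays of the study were not analysed here.

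Counts were tested with edgeR 4.0.16 in R 4.3.3 (TMM, quasi-likelihood test, Benjamini-Hochberg adjustment, threshold 0.05) on the genes that had reads in 50% of the libraries or more. The 20 BT474R libraries in 10 groups entered 1 fit, which gave EGF against vehicle, EGF against HRG, and the difference of the EGF effects at 24 h and 12 h. The difference between the lines was an interaction in a fit of all 40. Levels are TMM-scaled within each line. Pairs of libraries differed more than counting alone gives, so none was taken as a repeat of another. Alternatives were DESeq2 1.42.0, its size factors, other filters, a replicate block, fewer libraries, summed copy rows and leaving out each library.

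Genes are named by rule: the 12 largest rises and the 12 largest falls of DEGs whose mean reached 1 CPM and whose groups did not overlap, standard members of each of 31 lists of genes and markers, the members of a list with the largest change (up to 4 in each direction), and the genes that differed most between lines or times. The members and lists were chosen with earlier results of these data known, so they are not independent of them. Genes of the mitochondrial genome were not analysed here, and some genes named by rule are not reported here. Promoter sequences are from RefSeq (GRCh38.p14).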

Additional observations from a re-analysis of the deposited data

Results flagged for a closer look

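The effect of EGF at 24 h differed between BT474R and BT474 for 989 genes, by a test of the difference itself. The genes named by rule from this comparison differed as follows. GBP1 had a fitted log2 difference of 10.4, IFITM1 of 8.60, APOL6 of 7.31 and IFIT3 of 7.28, all larger in BT474R, and these values rest on counts at or near the detection limit in vehicle-treated BT474R and are no bounds. In BT474 with EGF, GBP1 was at 0 and 0.0471 CPM and IFIT3 at 0.306 and 0.471 CPM. OTOGL had a log2 difference of -5.38, which is no bound either, since EGF-BT474R had no count, against 0.26 and 0.322 CPM in its vehicle, while BT474 was at 2.24 and 3.04 CPM with vehicle and 2.33 and 1.32 CPM with EGF. NDST4 was at -2.75, the mitochondrial carrier gene SLC25A48 at -2.61 and H19 at -2.08. NDST4 fell in BT474R from 5.78 and 4.51 CPM to 0.298 and 0.235 CPM, and in BT474 it was at 3.66 and 3.44 CPM with vehicle and 1.07 and 1.41 CPM with EGF.

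Between 12 h and 24 h in BT474R, the effect of EGF differed for 45 genes, again by a test of the difference. It was larger at 24 h for the small nuclear RNA gene RN7SK, by 2.75 on the log2 scale. RN7SK was at 19.4 and 23.4 CPM with vehicle and 8.08 and 5.32 CPM with EGF at 12 h, and at 10.3 and 12.8 CPM and 22.9 and 25.5 CPM at 24 h. RN7SK has no poly(A) tail while the libraries were made with an mRNA kit, and its vehicle level differed between the times as well, and the part of either in the result was not tested. The chromatin remodeller CHD5 differed by 2.24, WARS1 by 2.10 and the transporter gene SLCO5A1 by 1.86. The difference was -1.54 for ADCY2, -1.33 for ENTPD8, -1.28 for TSPEAR and -1.28 for COLEC12. CHD5 was at 0.519 and 0.599 CPM with vehicle and 2.52 and 2.9 CPM with EGF at 24 h, and at 0.474 and 0.562 CPM and 0.613 and 0.451 CPM at 12 h.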

How the results depend on the processing

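EGF changed 4208 genes at 24 h. The count was 3618 with DESeq2, 4286 with its size factors, 4564 with the filter of edgeR (filterByExpr), 4526 with no filter, 3011 when only the 4 libraries were fitted and 4104 with copy rows summed, and between 2337 and 4146 when 1 library was left out. In each of these, genes called in both analyses changed in the same direction, and between 55.9% and 63.9% of calls were higher. For the difference between the lines (989 genes) the count was 553 when only the libraries compared were fitted, and between 618 and 1107 with 1 library left out. For 24 h against 12 h (45 genes) it was 91 with DESeq2, 261 with no filter and 96 when only the libraries compared were fitted, and between 12 and 122 with 1 library left out. For EGF against HRG (1258 genes) edgeR called 0 when only the 4 libraries were fitted, where 2122 had an unadjusted p below 0.05, while DESeq2 on the 20 libraries called 1081. With 1 library left out, edgeR called between 652 and 2030. The causes were not tested. With a replicate block the count of EGF against vehicle was 4315, and 4398 with the block within each time point, under which 24 h against 12 h gave 109. The deviations between replicates 1 and 2 at 24 h correlated at 0.0289 for vehicle and EGF over 14792 genes, 0.42 for vehicle and HRG and 0.266 for HRG and EGF. These values differ between the pairs of groups, so they do not settle whether replicate numbers pair the samples. The main fit used no pairing. Of 228 named genes tested, 195 were called, 130 kept their call under every alternative run and 65 lost it under 1 or more, 10 that were not called (TGFA, MUC1, VIM, HES1, IGF1R, SLC2A1, HK2, PKM, NOP56 and NCL) were called under 1 or more, and none reversed. With 2 libraries a group, low-count genes and small changes are the least certain.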
